A study of Mus musculus with 5 samples.

Results

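Enpp2 and Fmo1 were described in single islet cells of mice after, during and outside pregnancy. They are 2 of the 6626 genes that the files of all 5 libraries share. Both were chosen by their measured levels, which stood higher in the insulin-rich cells of postpartum mice than in those of the other libraries. Their levels in those cells, the contrast with other endocrine cells and their detection in the same cell are therefore given as descriptions, with no test. Only the comparison of groups within glucagon-rich cells was tested. Differences between groups in those cells did not choose the genes, but a choice of beta cell genes favours low levels there.

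Enpp2 encodes autotaxin, a secreted lysophospholipase D that cleaves lysophosphatidylcholine into lysophosphatidic acid (LPA), a lipid that signals through G protein-coupled receptors. Fmo1 encodes flavin-containing monooxygenase 1, a membrane enzyme of the endoplasmic reticulum that uses FAD and NADPH to oxidise soft nitrogen and sulphur atoms, and that can turn hypotaurine into taurine. Beta cells make insulin, and in the mouse their number and insulin output increase in pregnancy under placental lactogens acting on the prolactin receptor and return after birth.

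Islets of C57BL/6 mice were isolated and dissociated, and polyadenylated RNA of viable cells was counted by inDrop. This method captures cells in droplets and marks every RNA molecule with its own barcode, a unique molecular identifier or UMI. There were 2 postpartum libraries, 2 pregnant libraries and 1 non-pregnant library. The sources used here give no day of pregnancy, time after birth, age or number of mice per library. Nothing in the labels says that libraries of a group came from separate mice, so p-values measure only the spread between these libraries.

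The libraries held 557 and 1126 cells postpartum (postpartum 1 and 2), 1993 and 164 cells in pregnancy (pregnant 1 and 2) and 847 non-pregnant cells. The median cell had 213, 506.5, 449, 81 and 2122 UMIs of shared genes in that order. Pregnant 2 was thus the shallowest library, and it had no cell with 500 UMIs. The non-pregnant library was the deepest and its values were scaled in another way, so effects of the state of these mice and of the way the file was made cannot be told apart. The files number the cells and carry no barcodes, so barcodes shared between libraries could not be counted.

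Each cell was classed by the largest of Ins1 plus Ins2, Gcg, Sst and Ppy, the hormone genes of beta, alpha, delta and gamma cells. Insulin-led cells numbered 402 and 896 in the postpartum libraries, 1773 and 121 in the pregnant ones and 680 in the non-pregnant one. Gcg-led cells numbered 123 and 179, 141 and 23, and 94. A level is the mean over cells of counts per 1000000 (CPM) of non-hormone UMIs, because hormone transcripts took 58.6% and 63.1% of UMIs in the postpartum libraries, 45.0% and 35.4% in the pregnant ones and 38.9% in the non-pregnant one. The label of beta cells was checked on 6 non-hormone beta markers, Mafa, Nkx6-1, Slc2a2, G6pc2, Ucn3 and Pdx1. Their sum, as CPM of UMIs pooled over insulin-led cells, was 7142 and 6318 CPM postpartum, 5837 and 9017 CPM in pregnancy and 3773 CPM in the non-pregnant library. Pooled over Gcg-led cells it was 1102 and 371 CPM postpartum, 492 and 0 CPM in pregnancy and 253 CPM in the non-pregnant library. In pregnant 2, however, 3 of the 6 markers were at 0 in insulin-led cells. Mafa in insulin-led cells was 0.919 CPM in the non-pregnant library, against 1830 and 1273 CPM postpartum and 1188 and 1745 CPM in pregnancy. Nkx6-1 was at 462 CPM in the non-pregnant library, 50.8 and 67.0 CPM postpartum and 72.4 and 0 CPM in pregnancy. In postpartum 1 Nkx6-1 was not higher than in Gcg-led cells, which had 78.7 CPM. The sum thus does not hold for each marker.

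In build GRCm38, Enpp2 lies on the minus strand of chromosome 15 between 54838901 and 54952892. Its 9 annotated transcripts, 6 of them coding, have up to 26 exons, and 1 long non-coding RNA gene overlaps it on the other strand. Fmo1 lies on the minus strand of chromosome 1 between 162829561 and 162866610, beside Fmo2 and Fmo4, with 8 transcripts, 5 of them coding, and up to 9 exons. No stretch of 30 bases of the coding Enpp2 transcripts occurs in transcripts of another gene. For Fmo1, 396 of 3580 such stretches (11.1%) occur in transcripts of 42 other genes, none of them of the FMO family and most of them Sgip1. Sgip1 is outside the shared genes, and it had 27 UMIs in non-pregnant insulin-led cells. Whether counting used strand, and how it treated reads that fit several genes, is not stated in the sources used here. A part of the Fmo1 count is therefore uncertain, and its size was not measured.

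Enpp2 in insulin-led cells stood highest after birth. Its level was 2359 CPM in postpartum 1 and 2618 CPM in postpartum 2. In pregnant 1 it was 589 CPM, in pregnant 2 it was 1333 CPM, and the non-pregnant library had 361 CPM. Both postpartum libraries lay above the other 3, a pattern that the choice of the genes used and that 19.0% of the 2211 genes averaging 100 CPM or more shared. The group means were 2488 ± 183 CPM postpartum and 961 ± 526 CPM in pregnancy (SD, n = 2 libraries each).

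These levels rested on 91 and 494 Enpp2 UMIs in the postpartum libraries, 313 in pregnant 1, 10 in pregnant 2 and 388 in non-pregnant cells. The 10 UMIs of pregnant 2 all fell in 1 cell of 63 UMIs, of which 62 were not of hormones. The class of that cell therefore rests on 1 insulin UMI, and no other insulin-led cell of the library held Enpp2. The value of pregnant 2 is thus the value of 1 cell.

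With the UMIs of all insulin-led cells pooled, Enpp2 in postpartum 1 was 3.88 times its level in pregnant 1 (95% counting interval 3.04 to 4.92). In postpartum 2 it was 4.27 times that of pregnant 1 (3.70 to 4.94). The same ratios to pregnant 2 were 1.59 (0.826 to 3.43) and 1.75 (0.944 to 3.67), so at that depth no difference from pregnant 2 was detectable. The ratios to the non-pregnant library were 6.48 (5.10 to 8.16) and 7.14 (6.23 to 8.17). Postpartum 2 over postpartum 1 was 1.10 (0.879 to 1.39), a pair of neighbours in the order that did not differ beyond counting error. Pregnant 1 stood above the non-pregnant library by 1.67 times (1.43 to 1.94). Such intervals cover counting error only.

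Fmo1, the monooxygenase, had the same order of groups with a wider gap. Its level was 796 CPM in postpartum 1 and 1566 CPM in postpartum 2. It was 148 CPM in pregnant 1, 159 CPM in pregnant 2 and 47.2 CPM in non-pregnant cells. Both postpartum libraries again lay above the other 3. The group means were 1181 ± 545 CPM postpartum and 153 ± 7.80 CPM in pregnancy (SD, n = 2 libraries each). Pregnant 2 rests on 1 UMI, with a pooled counting interval of 3.68 to 810 CPM. The small SD in pregnancy therefore does not show that its libraries agreed.

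The Fmo1 UMIs behind these levels were 36 and 317 in the postpartum libraries, 82 in pregnant 1, 1 in pregnant 2 and 49 in non-pregnant cells. Pooled Fmo1 in postpartum 1 was 5.86 times that of pregnant 1 (3.85 to 8.77), and in postpartum 2 it was 10.5 times that of pregnant 1 (8.18 to 13.5). Over the single UMI of pregnant 2 the ratios were 6.29 (1.06 to 255) and 11.2 (2.00 to 445). The postpartum libraries differed from each other as well, unlike for Enpp2. Postpartum 2 was 1.79 times postpartum 1 (1.26 to 2.60). Over the non-pregnant library the ratios were 20.3 (12.8 to 31.9) for postpartum 1 and 36.3 (26.8 to 50.0) for postpartum 2. Pregnant 1 stood above the non-pregnant library by 3.47 times (2.40 to 5.04), while pregnant 1 and pregnant 2 could not be ordered at this depth.

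**Figure D1:**
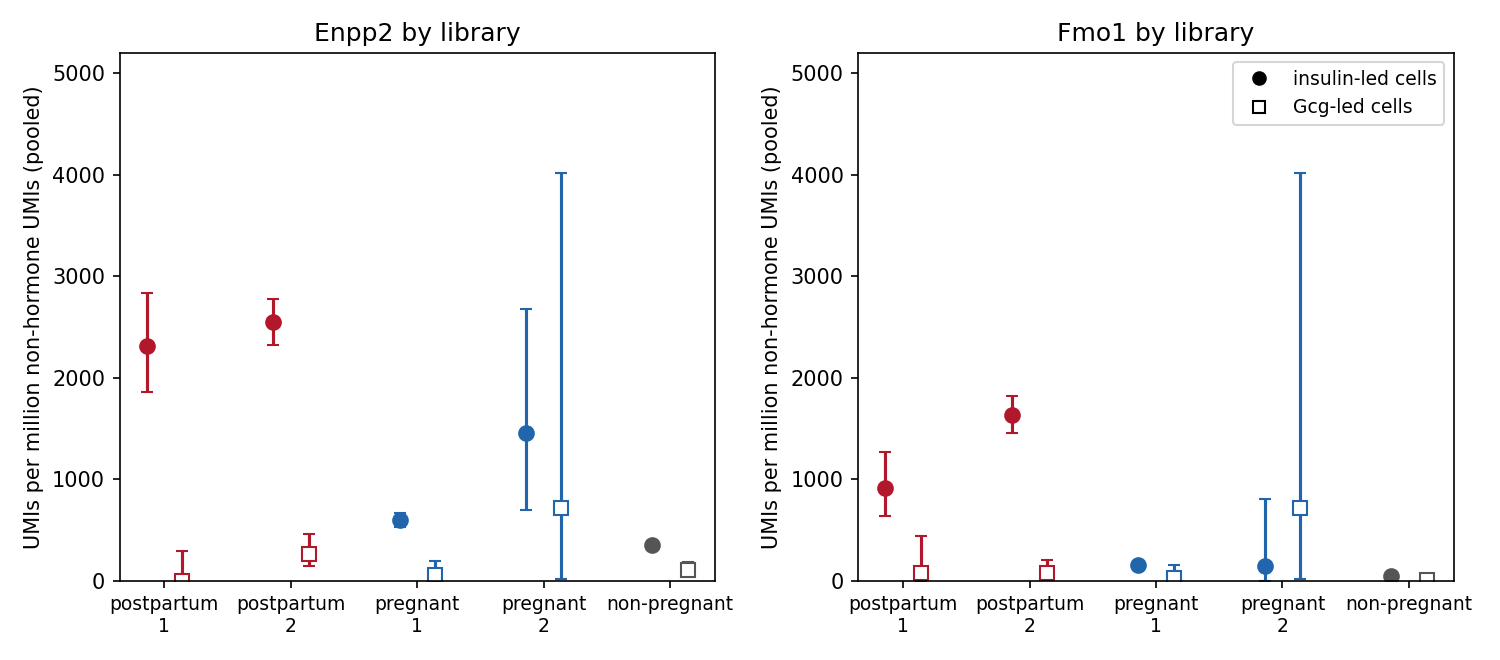
Pooled Enpp2 (left) and Fmo1 (right) UMIs as CPM of non-hormone UMIs in each library, for insulin-led cells (filled circles) and Gcg-led cells (open squares), with bars for the exact 95% Poisson interval. In insulin-led cells both postpartum libraries are above pregnant 1 and the non-pregnant library for both genes, while the bar of pregnant 2 for Enpp2 runs from 697 to 2675.

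On the scale of log2(level + 100 CPM), the postpartum minus pregnant difference in insulin-led cells was 1.38 for Enpp2 and 2.27 for Fmo1. The median of the 2211 genes was 0.55 in that comparison, and 185 genes had a larger difference than Enpp2 and 16 a larger one than Fmo1. Without pregnant 2 the median was -0.04. Against pregnant 1 alone the difference was 1.91 for Enpp2, with 14 genes above it, and 2.30 for Fmo1, with 7 above it. Postpartum minus non-pregnant was 2.49 for Enpp2 and 3.05 for Fmo1, with a median of -0.01 over all genes. There 16 genes had a larger difference than Enpp2 and 4 a larger one than Fmo1. Mafa was among those above both, at 3.95, with 1.41 CPM in the non-pregnant library and 1139 to 1758 CPM in the others. Gpx4 went the other way, at -3.39, with 1032 CPM against 0 to 66.7 CPM. How far the making of the non-pregnant file enters such differences was not tested. Prlr, the prolactin receptor, had 2.24 and 2.62 in the comparisons with pregnant and non-pregnant libraries.

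The denominator mattered for the size. As CPM of all UMIs, hormones included, the postpartum minus pregnant difference was 0.41 for Enpp2 and 1.43 for Fmo1, against a median of 0.13 over all genes. On that scale pooled Enpp2 in insulin-led cells was 923 and 879 postpartum, 323 in pregnant 1, 904 in pregnant 2 and 216 in non-pregnant cells. Pregnant 2 then stood between the postpartum libraries for Enpp2. For Fmo1 the pooled values were 365 and 564 postpartum, 84.6 in pregnant 1, 90.4 in pregnant 2 and 27.3 in non-pregnant cells. The value of pregnant 2 is 1 UMI. Its interval of 3.68 to 810 non-hormone CPM overlaps that of postpartum 1, 641 to 1267. The share of all genes with both postpartum libraries highest was not counted on the scale of all UMIs.

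**Figure D2:**
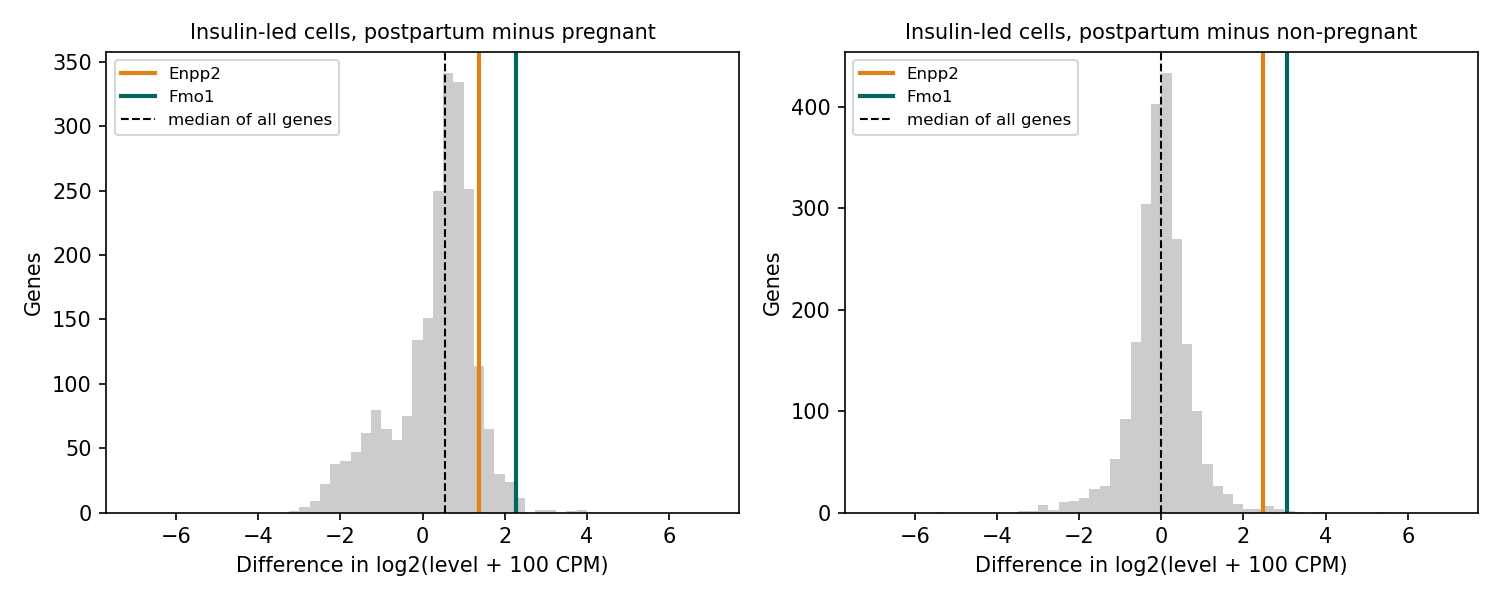
Histograms of the difference in log2(level + 100 CPM) in insulin-led cells over 2211 genes, postpartum minus pregnant (left) and postpartum minus non-pregnant (right), with lines for Enpp2, Fmo1 and the median of all genes. Fmo1 at 2.27 and 3.05 lies in the right tail of both, while Enpp2 at 1.38 on the left lies nearer the bulk, whose median there is 0.55.

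Deeper cells show a transcript more often, so detection was also compared with each cell thinned to 200 UMIs. Enpp2 was then seen in 13.8% of insulin-led cells in postpartum 1 (9.63 to 18.9, exact 95% binomial interval) and in 15.0% in postpartum 2 (12.8 to 17.6). It was seen in 5.81% in pregnant 1 (4.76 to 7.02) and 4.12% in non-pregnant cells (2.75 to 5.90). The postpartum intervals lay above both others, a pattern that the choice of the genes used. Such binomial intervals cover the sampling of cells within 1 library and leave out the spread between libraries. Thinning left 232, 891, 1737 and 680 cells and removed 170, 5, 36 and 0 cells in these libraries, and only 1 cell of pregnant 2 was deep enough.

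Thinned Fmo1 was seen in 4.31% of insulin-led cells in postpartum 1 (2.09 to 7.78) and 8.42% in postpartum 2 (6.68 to 10.4). It was seen in 1.44% in pregnant 1 (0.934 to 2.12) and 0.735% in non-pregnant cells (0.239 to 1.71), so the interval of postpartum 1 overlapped that of pregnant 1. Without thinning, Enpp2 was found in 17.7% and 33.3% of postpartum insulin-led cells, 13.9% in pregnant 1, 0.826% in pregnant 2 and 31.3% in non-pregnant cells. The high non-pregnant share without thinning goes against its low CPM and moves with its depth. Unthinned Fmo1 shares were 6.97% and 19.9% postpartum, 3.55% and 0.826% in pregnancy and 6.47% in the non-pregnant library.

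**Figure D3:**
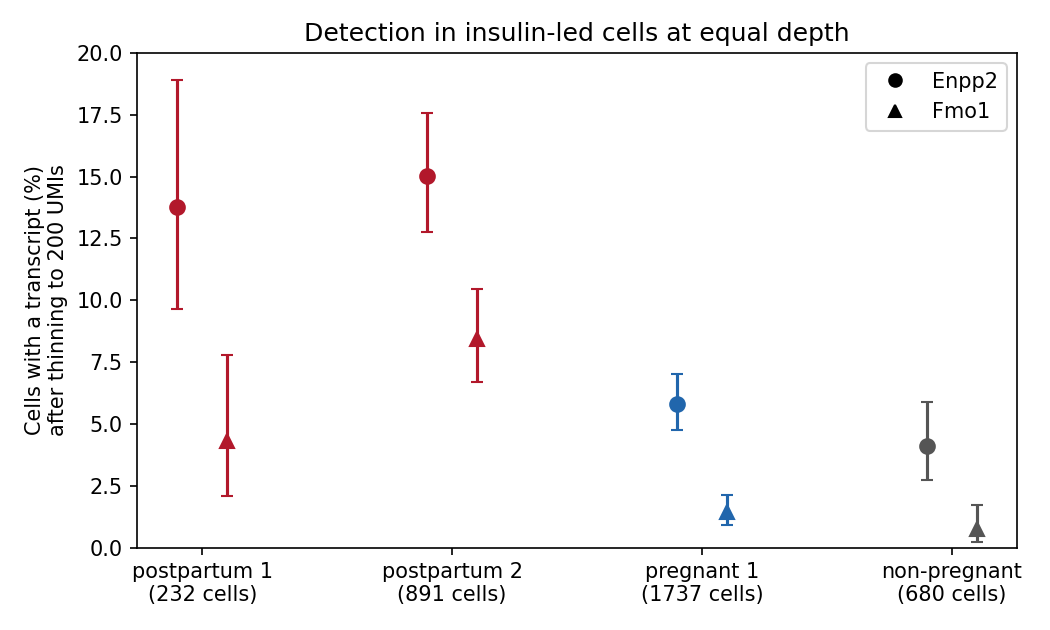
Share of insulin-led cells with at least 1 Enpp2 (circles) or Fmo1 (triangles) transcript after thinning each cell to 200 UMIs, with exact 95% binomial intervals and the number of cells under each library. Enpp2 is at 13.8% and 15.0% in the postpartum libraries, against 5.81% in pregnant 1 and 4.12% in non-pregnant cells, and pregnant 2 is not drawn because 1 cell remained.

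Most cells that held either transcript held a single copy. In postpartum 2, 180 of 298 Enpp2-holding insulin-led cells had 1 UMI, 72 had 2 and 10 had 5 or more, up to 6. In pregnant 1, 196 of 246 had 1 UMI and the highest count was 4. For Fmo1 in postpartum 2, 112 of 178 cells had 1 UMI and 9 had 5 or more, up to 9. In pregnant 1, 47 of 63 had 1 UMI and the highest count was 3. More cells thus held above 1 copy in postpartum 2 than in pregnant 1, without thinning. In postpartum 1, 56 of 71 Enpp2-holding cells had 1 UMI and the highest count was 4, as in pregnant 1. In the deeper non-pregnant library 115 of 213 had 1 UMI and the highest count was 10. The only Enpp2-holding insulin-led cell of pregnant 2 also had 10. For Fmo1, 23 of 28 cells in postpartum 1 and 40 of 44 non-pregnant cells had 1 UMI, with at most 3.

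The levels were also read in 3 equal depth groups of the insulin-led cells of each library, cut by non-hormone UMIs. The cuts were made within a library, so the depth groups were not matched between libraries. Their median non-hormone UMIs were 56.5, 89 and 135 in postpartum 1 and 103, 181 and 320 in postpartum 2. They were 141, 245 and 441 in pregnant 1 and 734, 1322 and 2428 in the non-pregnant library. Enpp2 pooled over the shallow, middle and deep cells was 2282, 2507 and 2208 CPM in postpartum 1 and 3020, 2331 and 2523 CPM in postpartum 2. It was 541, 605 and 607 CPM in pregnant 1 and 417, 285 and 376 CPM in the non-pregnant library. Pregnant 2 had 0, 4742 and 0 CPM, from 10 UMIs in 1 cell. In each depth group both postpartum libraries lay above pregnant 1 and the non-pregnant library. The middle value of pregnant 2 lay above both postpartum libraries. Fmo1 was 805, 418 and 1254 CPM in postpartum 1 and 1778, 1322 and 1749 CPM in postpartum 2. It was 120, 150 and 170 CPM in pregnant 1 and 41.7, 52.4 and 42.3 CPM in the non-pregnant library. The order of these libraries was kept in each depth group. In pregnant 2 Fmo1 was 0, 474 and 0 CPM, from 1 UMI, and its middle value lay above that of postpartum 1.

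Across all libraries 1296 of 1360 Enpp2 UMIs and 485 of 499 Fmo1 UMIs were in insulin-led cells, which were 3872 of 4687 cells. Gcg-led cells held 29 Enpp2 UMIs and 8 Fmo1 UMIs in 560 cells. Sst-led cells held 18 and 3 in 122 cells, and Ppy-led cells held 16 and 3 in 106 cells. Both genes were thus also counted in the other endocrine classes, at few UMIs, and Enpp2 was not lower in each of them in each library.

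In Sst-led cells the Enpp2 level was 509 and 655 CPM postpartum, 281 and 0 CPM in pregnancy and 140 CPM in the non-pregnant library, from 1 and 4, 6 and 0, and 7 UMIs. In Ppy-led cells Enpp2 was at 0 and 445 CPM postpartum, 757 and 0 CPM in pregnancy and 153 CPM in the non-pregnant library, from at most 9 UMIs each. Fmo1 was counted in these classes in 2 libraries only, at 102 CPM (Sst-led) and 291 CPM (Ppy-led) in postpartum 2 and at 24.7 and 27.9 CPM in the non-pregnant library. The Ppy-led Enpp2 level of pregnant 1 was thus above the 589 CPM of its insulin-led cells. With 1 to 9 UMIs behind each value above 0, the order of libraries in these classes could not be read.

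Enpp2 in Gcg-led cells had a level of 0 CPM in postpartum 1, 272 CPM in postpartum 2, 64.8 CPM in pregnant 1, 1610 CPM in pregnant 2 and 82.8 CPM in non-pregnant cells. These came from 0, 13, 2, 1 and 13 UMIs, and a count of 0 allows up to 236 CPM in postpartum 1 (3 counts). Pooled Enpp2 was at least 9.79 times higher in insulin-led than in Gcg-led cells in postpartum 1, with Gcg-led cells set at that limit. The ratio was 9.51 (5.51 to 18.0) in postpartum 2 and 10.9 (2.99 to 90.5) in pregnant 1. It was 2.02 (0.287 to 87.5) in pregnant 2 and 3.36 (1.94 to 6.37) in non-pregnant cells. The difference between classes was therefore not detectable in pregnant 2.

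Free RNA in droplets can place transcripts in cells that do not make them. Ins2, which alpha cells should lack, was 20.2 and 26.8 times higher in insulin-led than in Gcg-led cells postpartum, 11.7 and 116 times in pregnancy and 19.6 times in the non-pregnant library. Enpp2 was seen in 0% and 5.03% of postpartum Gcg-led cells, in 0.709% and 4.35% of pregnant ones and in 8.51% of non-pregnant ones. The median depth of those cells was 215, 573, 397, 85 and 1892 UMIs, against 221, 501.5, 461, 81 and 2210.5 UMIs in insulin-led cells. Outside pregnant 2, the Enpp2 share was lower in Gcg-led than in insulin-led cells of about the same depth. In postpartum 2, 4 of the 9 Gcg-led cells with Enpp2 had Gcg under 80% of the UMIs of the 4 hormones. Gcg made up at least 80% in 151 of all 179 Gcg-led cells of that library. Cells of mixed hormones were not removed.

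Fmo1 in Gcg-led cells had a level of 65.6 and 74.7 CPM postpartum, 54.6 and 247 CPM in pregnancy and 11.5 CPM in the non-pregnant library, from 1, 4, 1, 1 and 1 UMIs. The pooled ratio of insulin-led over Gcg-led cells was 11.6 (1.96 to 472) in postpartum 1 and 19.8 (7.67 to 73.3) in postpartum 2. It was 5.72 (0.998 to 228) in pregnant 1, 0.202 (0.00257 to 15.8) in pregnant 2 and 5.52 (0.945 to 222) in non-pregnant cells. A class difference was thus beyond counting error in the postpartum libraries and not detectable in the other 3.

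Gcg-led cells gave the only test. Differences between groups in these cells had not chosen the genes. The genes were chosen as beta cell genes, however, which favours low counts here and makes a difference harder to detect. With limma on log2(level + 100 CPM), Enpp2 differed by -1.46 ± 1.34 (SE) between postpartum and pregnant libraries, with a Benjamini-Hochberg adjusted p of 0.916. Between postpartum and non-pregnant libraries it differed by 0.08 ± 1.64, with an adjusted p of 1. The negative sign rests on the 1 UMI of pregnant 2, and without that library limma gave 0.23 ± 0.99 against pregnant 1 (adjusted p = 0.952). Fmo1 did not pass the filter of a mean of 100 CPM. Of the other settings, 3 let it in for both comparisons. Against pregnant, Fmo1 then differed by -0.84 ± 1.06 (pooled UMIs), -0.45 ± 0.68 (no filter) and -0.45 ± 0.97 (80% class rule). The limma adjusted p was 0.923, 0.909 and 0.924. Against non-pregnant the same settings gave 0.74 ± 1.30, 0.61 ± 0.83 and 0.66 ± 1.19, with adjusted p of 0.999, 1 and 1. A fit with the replicate number as a block let Fmo1 in against pregnant only. It gave -0.45 ± 0.99, with a limma adjusted p of 0.895. No difference of either gene passed the threshold in Gcg-led cells, which does not show that the groups were equal there.

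Of the 1878 genes tested in Gcg-led cells 0.0532% were called in each comparison by limma, which is 1 gene, Gcg. Gcg rules the class and is itself left out of the denominator, so its call is no result on these cells. When the hormone genes were left out of the test, an alternative added after that call was seen, limma called 1 of 1871 genes, Ttr, the transthyretin gene, which is abundant in alpha cells. Its level was 64714 and 64719 CPM postpartum, 19954 and 16327 CPM in pregnancy and 19898 CPM in the non-pregnant library. At an unadjusted p under 0.05 limma had 44 and 18 genes over all 1878, and edgeR on recovered UMIs called 0 genes in either comparison.

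Enpp2 and Fmo1 were held by the same insulin-led cell in 5 of 402 cells of postpartum 1 and 82 of 896 cells of postpartum 2. They were held together in 12 of 1773 cells of pregnant 1, 0 of 121 cells of pregnant 2 and 12 of 680 non-pregnant cells. The product of the shares of the transcripts gave 4.95, 59.2, 8.74, 0.00826 and 13.8 such cells. Only in postpartum 2 did the interval of the observed over the expected number, 1.39 (1.11 to 1.70), lie above 1. In postpartum 1 it was 1.01 (0.329 to 2.34), in pregnant 1 it was 1.37 (0.710 to 2.39) and in the non-pregnant library 0.871 (0.451 to 1.51).

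Depth moved with co-detection. In postpartum 2 the cells with both transcripts had a median of 916.5 UMIs, those with only Enpp2 had 640.5, those with only Fmo1 had 617.5 and those with neither had 418. With the expected number summed over 5 equal groups by depth the ratio in postpartum 2 was 1.21, and with cells thinned to 200 UMIs it was 1.15 (0.615 to 1.96). At equal depth, co-detection beyond the product of the shares was therefore not detectable in postpartum 2. At the deposited depth Enpp2 was in 46.1% of its Fmo1-holding insulin-led cells and in 30.1% of the others. Most cells with 1 of the transcripts lacked the other, 216 with only Enpp2 and 96 with only Fmo1 against 82 with both.

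**Figure D4:**
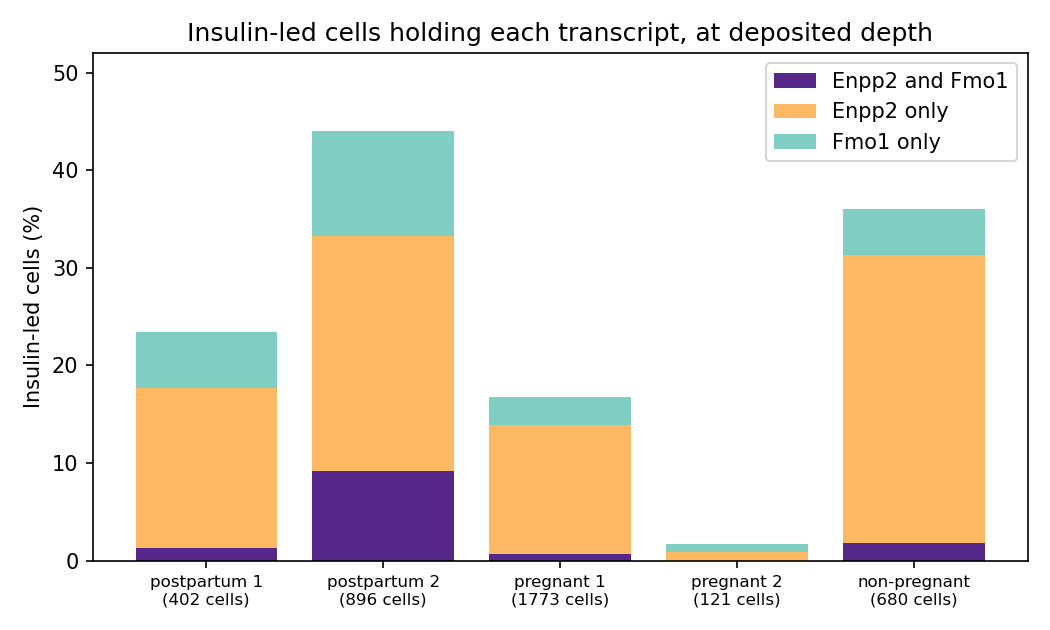
Share of insulin-led cells of each library with both transcripts (bottom), only Enpp2 (middle) or only Fmo1 (top), at the deposited depth. Cells with both make up 1.24% and 9.15% in the postpartum libraries, 0.677% and 0% in the pregnant ones and 1.76% in the non-pregnant one, and the median depth differs between libraries.

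Pooled Prlr was higher in insulin-led cells with either or both transcripts than in those with neither, in each library but pregnant 2. Mafa and Slc2a2 differed in no single direction. In postpartum 2, Prlr was at 8848 CPM in cells with both transcripts, 6722 with only Enpp2, 6838 with only Fmo1 and 5973 with neither. Mafa, a beta cell transcription factor, was at 1901, 1398, 1519 and 963 CPM in the same order. Slc2a2, the glucose transporter, was at 402, 230, 332 and 353 CPM, so it did not follow them. In postpartum 1, Mafa was at 1527, 2039, 1245 and 1849 CPM, with 1 UMI behind the first value. In pregnant 1, Prlr was at 2154, 1345, 1554 and 1239 CPM. In postpartum 1 it was at 9160, 6252, 7783 and 5903 CPM, with 6 UMIs behind the first value. In the non-pregnant library it was at 926, 1041, 917 and 855 CPM. In pregnant 2 the 1 cell with Enpp2 and the 1 cell with Fmo1 held no Prlr. These are pooled counts of cells that share a library, given without a test.

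Genes with a like pattern were ranked by Pearson correlation of log2(level + 100 CPM) over 15 points, each a library and hormone-led class, among 4402 genes. The points share libraries, depth and the contrast between hormone classes. Among the genes closest to Enpp2 were Scg2 (0.82), a secretory granule protein, Prlr (0.80), Uggt1 (0.78), a glycoprotein folding sensor, and Pcsk1 (0.76), the prohormone convertase that starts proinsulin processing. Fmo1 was 7th for Enpp2 at 0.74, and Enpp2 was 14th for Fmo1. Among the genes closest to Fmo1 were Fkbp11 (0.86), a prolyl isomerase of the endoplasmic reticulum, Nrp1 (0.81), a co-receptor of semaphorins and VEGF, Pnlip (0.81), the lipase of acinar cells, and Trpm5 (0.80), a calcium-activated cation channel.

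Prlr had insulin-led levels of 6475 and 6610 CPM postpartum, 1229 and 1396 CPM in pregnancy and 977 CPM in the non-pregnant library. Fkbp11 had 188 and 313 CPM postpartum, 29.7 and 0 CPM in pregnancy and 38.8 CPM in the non-pregnant library. Scg2 varied less, with 12559 and 10318 CPM postpartum, 8062 and 8297 CPM in pregnancy and 5549 CPM in the non-pregnant library. In Prlr and Scg2 both postpartum libraries were above the other 3. For Fkbp11 they were above pregnant 1 and the non-pregnant library. A count of 0 in insulin-led cells of pregnant 2 allows up to 436 CPM (3 counts), above both postpartum values of Fkbp11. Uggt1 was at 759 and 804 CPM postpartum, 486 and 1910 CPM in pregnancy and 351 CPM in the non-pregnant library. Pcsk1 was at 2394 and 1742 CPM postpartum, 915 and 3276 CPM in pregnancy and 671 CPM in the non-pregnant library, so these genes were highest in pregnant 2. All were picked for their correlation with Enpp2 or Fmo1, so their order is no separate result.

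Few relatives of either enzyme were measured in all libraries. Of 6 other ENPP genes 2 were shared and 1, Enpp5, passed the filter of 100 CPM. Enpp5, a membrane protein of the family, was at 255 and 87.9 CPM postpartum, 225 and 0 CPM in pregnancy and 397 CPM in the non-pregnant library, so its groups overlapped. Fmo2, Fmo4 and Fmo5 were not among the shared genes. In non-pregnant insulin-led cells Fmo2 had 18 UMIs, Fmo4 had 8 and Fmo5 had 30.

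On the LPA side, 15 listed symbols of receptors, phosphatases and acyltransferases stand for 12 genes, since 3 are older names. Of these genes 4 were shared and 1 passed the filter. That gene, Plpp3, a phosphatase that degrades LPA outside the cell, was at 289 and 320 CPM postpartum, 75.0 and 0 CPM in pregnancy and 197 CPM in the non-pregnant library. Lpar6, an LPA receptor, was under the filter at 66.7 and 75.4 CPM postpartum, 20.9 and 0 CPM in pregnancy and 31.6 CPM in the non-pregnant library, from 3 and 12, 15 and 0, and 31 UMIs. The count of 0 in pregnant 2 allows up to 436 CPM, above the postpartum values of Plpp3 and Lpar6. In the non-pregnant file, which lists the other receptors, Lpar1 to Lpar5 had 2 to 7 UMIs each in insulin-led cells. The median postpartum minus pregnant difference of this list rests on Plpp3 alone and was 1.61, beside 0.55 over all genes, and without pregnant 2 it was 1.21 beside -0.04.

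On the taurine side, 3 of 6 listed genes were shared and 1 passed the filter. That gene, Slc6a6, the taurine transporter, was at 838 and 548 CPM postpartum, 332 and 0 CPM in pregnancy and 393 CPM in the non-pregnant library. Both postpartum libraries were above the others, as for 19.0% of the 2211 genes. Its postpartum minus pregnant difference was 1.91, and 0.85 without pregnant 2. Csad, which makes hypotaurine from cysteine sulphinate, was at 51.3 and 72.0 CPM postpartum, 44.6 and 0 CPM in pregnancy and 39.8 CPM in the non-pregnant library, under the filter.

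Few genes that supply flavin and NADPH could be read. Of 10 listed genes 7 were shared and 3 passed the filter, and for 0 of these were both postpartum libraries above the other 3, for 2 below them. Both lay below the other 3 in 173 of the 2211 genes. Rfk, the riboflavin kinase, was at 326 and 165 CPM postpartum, 362 and 0 CPM in pregnancy and 337 CPM in the non-pregnant library. Its groups overlapped only through the 0 of pregnant 2, which allows up to 436 CPM. Idh1, the cytosolic isocitrate dehydrogenase, was at 0 and 32.8 CPM postpartum, 241 and 1653 CPM in pregnancy and 252 CPM in the non-pregnant library. Por, which passes electrons from NADPH to cytochromes P450, was at 143 and 115 CPM postpartum, 188 and 2583 CPM in pregnancy and 213 CPM in the non-pregnant library. The pregnant 2 values of Idh1 and Por rest on 2 and 20 UMIs. The median postpartum minus pregnant difference of the 3 genes was -1.94, beside 0.55 over all genes, and without pregnant 2 it was -0.46 beside -0.04. With 3 genes, a count of 0 above is near the 19.0% of all genes.

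Markers of other cell types were read in insulin-led cells as pooled CPM. The sum of 7 acinar markers was 2084 and 1711 CPM postpartum, 30.5 and 6108 CPM in pregnancy and 727 CPM in the non-pregnant library, with 4 of the 7 at 0 in each pregnant library and none at 0 in the others. Acinar RNA was thus highest in pregnant 2 and lowest in pregnant 1. Rgs5, the 1 measured of 7 mesenchymal markers, was at 330 and 335 CPM postpartum, 22.9 and 0 CPM in pregnancy and 41.4 CPM in the non-pregnant library. Both postpartum values were above pregnant 1 and the non-pregnant library, while a count of 0 in pregnant 2 allows up to 436 CPM. The 6 measured endothelial markers summed to 610 and 727 CPM postpartum, 488 and 0 CPM in pregnancy and 731 CPM in the non-pregnant library. For them neither postpartum value was above the non-pregnant one.

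The early response genes Fos and Jun stood higher after birth too. The level of Jun was 2249 and 2357 CPM postpartum, 184 and 0 CPM in pregnancy and 213 CPM in the non-pregnant library, and its postpartum minus pregnant difference was 3.83. The level of Fos was 1980 and 1854 CPM postpartum, 157 and 0 CPM in pregnancy and 181 CPM in the non-pregnant library. The part of acinar RNA, mesenchymal RNA and the early response in the values of Enpp2 and Fmo1 was not tested. As pooled CPM in postpartum 2, Jun was at 2377 in cells with both transcripts, 1609 with only Enpp2, 2279 with only Fmo1 and 2612 with neither. In postpartum 1 it was at 0, 1903, 3113 and 2311 CPM in the same order, with 5 cells behind the first value.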

How the data were processed

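Per the submitters' processing notes, the authors used Partek 8.0 and Bowtie 1.1.1 with builds GRCm38 and mm10. The sources used here state no counter, annotation or cell filter. In the non-pregnant file the authors deposited a linear signal, each cell scaled to 1 sum over 40930 features. The other 4 deposited files hold log2 of CPM plus 1 over 6695 features. UMIs were recovered by dividing each cell by its smallest value (100% within 0.1 of a whole number). In 9 cells of pregnant 2 that smallest value stood for more than 1 UMI. A recovered count in pregnant 2 may not be 1 molecule.

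Genes were matched by symbol (6543) or a unique synonym (83). Rn45s, Gm42418 and symbols turned into dates were left out, and 7 hormone genes were left out of the denominator. No cell and no doublet was removed. Levels, intervals and thinning were computed in Python 3.11.15. Libraries with at least 10 Gcg-led cells entered 1 limma 3.58.1 fit (R 4.3.3) of 3 groups, with a trended prior, a filter of 100 CPM, a pseudocount of 100 CPM and two-sided Benjamini-Hochberg adjusted p under 0.05. The fit had 2 residual degrees of freedom and the prior had infinite weight, so the trend over genes set the errors. The fit takes the single non-pregnant library to have the spread of the others. The planned test on raw counts gave way to limma because the files are normalized. The quasi-likelihood test of edgeR 4.0.16 on the recovered UMIs, an added alternative, called 0 genes in both comparisons. The scripts were tested on simulated data.

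Enpp2, Fmo1 and the lists were chosen with earlier results of these data known. Named genes were these, list members, markers, and the 5 genes most correlated with each (at least 100 insulin-led UMIs; points of at least 10 cells and 5000 non-hormone UMIs). Some genes that this rule names are not reported here. Gcg, Sgip1, Gpx4, Fos and Jun were named after their values were seen. Alternatives changed the denominator, pooling, pseudocount, filters, class rule, libraries and block.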

Additional observations from a re-analysis of the deposited data

How the results depend on the processing

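Of 98 alternative values, 71 kept their side, 20 moved beyond the spread or the count limit and 7 changed sign. In insulin-led cells the postpartum minus pregnant and postpartum minus non-pregnant differences kept their sign in each setting. With all UMIs as denominator they were 0.41 and 1.70 for Enpp2 and 1.43 and 2.02 for Fmo1. Against the non-pregnant library a pseudocount of 10 CPM gave 2.75 for Enpp2 and 4.30 for Fmo1, and 500 CPM gave 1.79 and 1.58. With 500 CPM Fmo1 was 1.32 against pregnant. Cells of at least 500 UMIs gave 1.73 for Enpp2 against non-pregnant. Insulin-led cells at 98% (added after seeing the data) gave 2.97 for Fmo1 against pregnant. Leaving out 1 library at a time gave 0.85 (without pregnant 1) to 1.91 (without pregnant 2) for Enpp2 and 1.82 (without postpartum 2) to 2.72 (without postpartum 1) for Fmo1 against pregnant. Non-pregnant co-detection over expectation was 0 after thinning, where 0.206 cells were expected.

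Calls in Gcg-led cells were 0 (against pregnant) and 150 (against non-pregnant, all lower) with no filter and 2 against non-pregnant under the 80% class rule, where the main fit had 1 each. Leaving out 1 library at a time gave 0 (without pregnant 2) to 771 (without pregnant 1) calls against pregnant, and 0 (without pregnant 1) to 1 against non-pregnant. The recovered UMIs gave 0 calls in both by edgeR, with 50 and 39 genes at an unadjusted p under 0.05. Enpp2 in Gcg-led cells against non-pregnant changed sign to -0.16 with all UMIs, -0.10 with pooled UMIs, -0.80 with 10 CPM, -0.50 under the 80% rule and -0.87 without postpartum 2, and was highest at 1.03 without postpartum 1. Against pregnant it changed sign to 0.23 without pregnant 2 and to 1.47 by edgeR, and was lowest at -3.15 without pregnant 1. The cause was not tested. None of these Enpp2 values passed the threshold.

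No pairing of libraries by replicate number was seen in Gcg-led cells. Pregnant 2 had 1386 non-hormone UMIs in 23 such cells, so this check could hardly have shown one. Deviations of same-numbered postpartum and pregnant libraries had r = -0.04 over 1878 genes, and the fit with the replicate block had 1 call against pregnant, as without it. No block could be fitted for postpartum minus non-pregnant, whose single library has no replicate number in the labels.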
